A study of Bombyx mori with 4 samples.

Results

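Sp2 (BGIBMGA009028) and Lp-c6 (BGIBMGA004394) are the storage protein genes followed here in the larval midgut of the silkworm, Bombyx mori. They are 2 of the 5558 gene models in the deposited table, and they were chosen by their RPM values in these same libraries, so every level and ratio given for them is a description and carries no test. Sp2 is the model whose best protein hit is sex-specific storage-protein 2 precursor, and Lp-c6 is the model whose best hit is the low molecular 30 kDa lipoprotein PBMHP-6 precursor. They are read beside the 8 other models whose best hit is named as a storage protein, an arylphorin or a 30K protein.

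The samples were 4 RNA-seq libraries of midguts taken from larvae in their final instar (instar 5, day 2). The groups were 932 control and 932 heat, from a variety labelled thermtolerant, and HY control and HY heat, from a variety labelled thermsensitive, where heat stands for treatment at high temperature. Each group held 1 library, so there is no replicate check on any value, and each comparison is between libraries. The temperature, the length of the exposure, the sex of the larvae and the number of larvae in a library are not given in the sources used here. Values are tags per 1000000 tags of the library (RPM), uncorrected for gene length, so levels are compared between libraries and not between genes. At the recovered totals of 5799075 to 6139297 tags per library, 1 tag was worth 0.163 to 0.172 RPM. The lowest value above 0 was 2 tags in each library, so a value listed at 0 can stand for 0 or for 1 tag.

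Storage proteins of insects are hexamers that the larval fat body makes in large amounts in the last instar and releases into the haemolymph, the insect blood. Before pupation the fat body takes them back as a store of amino acids for building the adult. The 30K lipoproteins of the silkworm are small haemolymph proteins that are also made mainly by the fat body and are later taken up by the ovary. Juvenile hormone and ecdysone, the hormones that time moulting and metamorphosis, are known to control genes of both families. The midgut is the digestive epithelium and is not the main source of either family.

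Sp2 was high in 932 heat and HY control and low in 932 control and HY heat. It read 1.47 RPM in 932 control (9 tags), 8.58 in 932 heat (50 tags), 9.31 in HY control (54 tags) and 0.33 in HY heat (2 tags). The exact 95% Poisson intervals, which cover counting error only, were 0.67 to 2.78 RPM in 932 control, 6.37 to 11.3 in 932 heat, 7.0 to 12.1 in HY control and 0.0403 to 1.2 in HY heat. The counting intervals of 932 heat and HY control overlapped each other and lay above those of 932 control and HY heat.

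Lp-c6 was high in the same libraries and was listed at 0 in the others. It read 10.47 RPM in 932 heat (61 tags) and 9.48 in HY control (55 tags). Their intervals were 8.01 to 13.4 and 7.14 to 12.3 RPM. The 932 control and HY heat libraries gave no listed tags of Lp-c6, and there a floor of 3 tags corresponds to 0.489 and 0.5 RPM. In bulk tissue such as this, fewer cells of a type and less RNA per cell cannot be told apart.

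**Figure D1:**
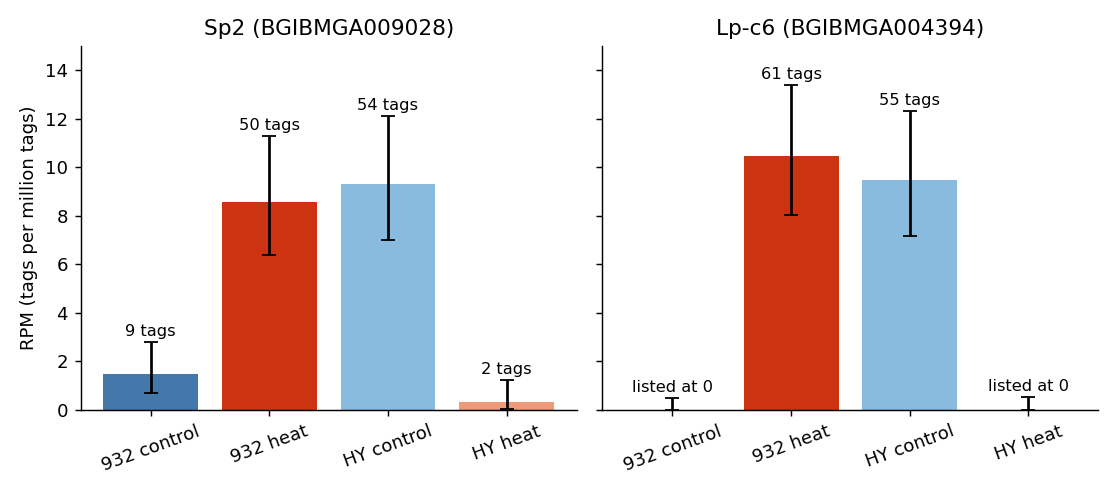
Level of Sp2 and Lp-c6 in each library, in RPM from 0, with the number of tags above each bar; each bar is 1 library and the error bars are exact 95% Poisson intervals, or reach up to the floor of 3 tags where a gene is listed at 0. Sp2 and Lp-c6 stand between 8.58 and 10.47 RPM in 932 heat and HY control and at or below 1.47 RPM in 932 control and HY heat.

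The ratios between neighbours in the order of the libraries are given with their counting intervals, as a description. For Sp2 the highest library was HY control, followed by 932 heat, 932 control and HY heat. HY control was 1.09-fold the level of 932 heat (95% interval 0.725 to 1.63). From 932 heat to 932 control the step was 5.85-fold (2.85 to 13.5). From 932 control to HY heat it was 4.4-fold (0.911 to 41.9), where the lower library held 2 tags. For Lp-c6 the order began with 932 heat, at 1.10-fold the level of HY control (0.754 to 1.62), and the remaining libraries were both listed at 0. These intervals are exact conditional (Clopper-Pearson) intervals of the ratio of tags, and they do not hold the variation between larvae.

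In 932, the variety labelled thermtolerant, Sp2 and Lp-c6 were both higher after heat. Sp2 was 5.85-fold higher in the heat library than in control (2.85 to 13.5), a log2 ratio of 1.96 after 1 RPM was added to each value. Lp-c6 was 21.4-fold higher after heat with the control library set at the floor of 3 tags. This fold leaves out the counting error of the heat library and is not a lower limit. Over all genes with at least 1 RPM in 1 of those libraries, 11.1% were at least 2-fold higher (300 of 2708) and the median log2 ratio was 0.02. Of the 10 genes on the storage protein and 30K list, 4 reached 1 RPM in this comparison, and 3 of them passed 2-fold upwards and none downwards (9.86% of all genes did), with a median log2 ratio of 1.55, or 1.63 with genes listed at 0 in control set at the floor of 3 tags. Of these 3, Sp2 and Lp-c6 had been chosen on these values. The remaining gene, the 30kDa protein gene BGIBMGA004397, was listed at 0 in control and reached 1 RPM only after heat, at 1.2 RPM. The median of the 4 genes includes these 3, so it describes them and is not a measure of the family.

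In HY, the variety labelled thermsensitive, the same genes were lower after heat. Sp2 read 28.0-fold lower in the heat library than in control (7.38 to 237), a log2 ratio of -2.95 with 1 RPM added. Lp-c6 was 19.0-fold lower after heat with the heat library set at the floor of 3 tags, again without the counting error of the higher library. Over all genes 4.59% were at least 2-fold lower (129 of 2810), and the median log2 ratio was 0.34, which was 0.07 with median-of-ratios size factors and 0.12 when the 20 most abundant genes were left out of the totals. Centred on the median of 0.34, the log2 ratio of Sp2 was -3.29 and that of Lp-c6 -3.73. Of the list, 3 genes reached 1 RPM, and the 2 that were lower are Sp2 and Lp-c6 themselves, chosen on these values. The remaining gene, the protease described below, was within 2-fold, and 14.1% of all genes were higher.

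The varieties therefore stood in opposite order in the control and the heated larvae. Among controls Sp2 was 6.35-fold lower in 932 than in HY (3.11 to 14.6). Lp-c6 was 19.4-fold lower with 932 control set at the floor of 3 tags. Of all genes 15.1% were at least 2-fold lower in 932 control than in HY control (419 of 2780) and 17.9% higher. After heat Sp2 was 25.8-fold higher in 932 than in HY (6.77 to 219). Lp-c6 was 21.0-fold higher with HY heat set at the same floor. In that comparison 14.1% of all genes were at least 2-fold higher in 932 (421 of 2990) and 20.8% lower. The list gave 1 gene higher and 2 lower among 3 above 1 RPM in the controls, and 3 higher and none lower among 4 after heat. Sp2 and Lp-c6 are among those counted, and the remaining gene higher after heat, BGIBMGA004397, reached 1 RPM only in 932 heat. The protease was 2.02-fold higher in 932 than in HY after heat (1.56 to 2.62), just under 2-fold with 1 RPM added, and the count was 4 higher with 0.1 added, with median-of-ratios factors, with centring and with whole tags. These ratios reuse the libraries of the heat comparisons and add no independent measurement.

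As the difference of the log2 heat responses, 932 minus HY, Sp2 stood at 4.91 and Lp-c6 at 6.91, the latter resting on the added 1 RPM because Lp-c6 was listed at 0 in a library of each variety. Of 3214 genes with at least 1 RPM in any library, 8.09% had a response at least 2-fold greater in 932 and 18.8% one at least 2-fold smaller. On the list 3 of 4 genes were greater in 932. They were Sp2 and Lp-c6, chosen on these values, and BGIBMGA004397, which reached 1 RPM only in 932 heat. In HY that gene was under 1 RPM in both libraries, so its difference rests on few tags. The remaining gene, the protease described below, was smaller. A rise of at least 2-fold after heat in 932 together with a fall of at least 2-fold in HY was seen in 12 genes, or 0.373%, and Sp2 and Lp-c6 are among those 12 by the way they were chosen. With 1 library in each group, no test of this difference could be made.

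**Figure D2:**
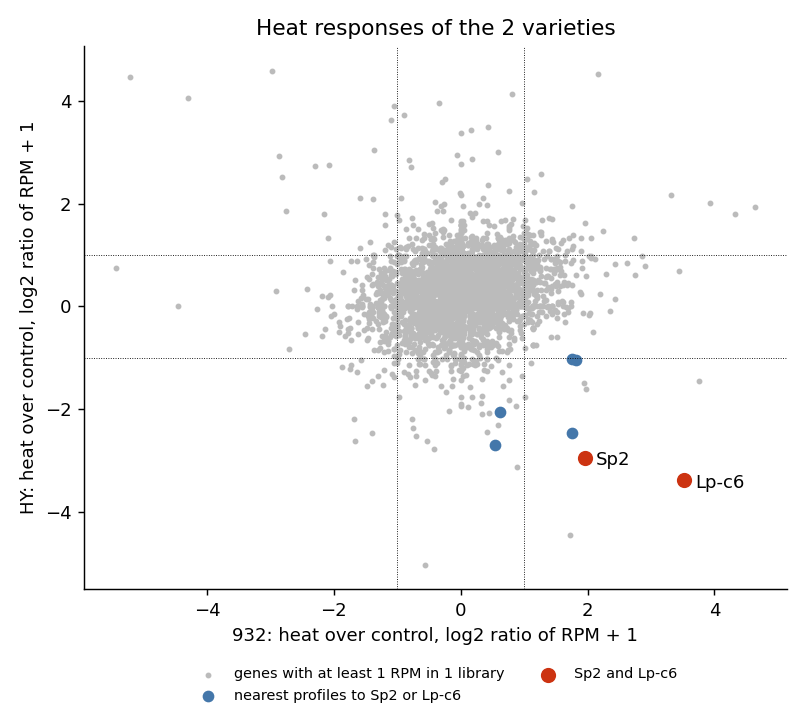
Log2 ratio of RPM plus 1, heat over control, in 932 (x axis) and in HY (y axis) for the 3214 genes with at least 1 RPM in any library; dotted lines mark 2-fold. Sp2 lies at 1.96 and -2.95 and Lp-c6 at 3.52 and -3.39, in the corner of genes higher in 932 and lower in HY after heat.

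Among the listed models, the remaining members of the storage protein and 30K families were read at a few tags or none. Members without a listed model could not be read. Of the 10 genes on the list, 3 were above 0 in 932 control, 7 in 932 heat, 5 in HY control and 2 in HY heat. In 4 genes the level was above 0 somewhere but under 1 RPM in every library, and 2 genes were listed at 0 in all libraries. Outside Sp2 and Lp-c6, only the 30kDa protein gene and the 30kP protease A gene reached 1 RPM.

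The 30kDa protein gene BGIBMGA004397 had the order of libraries seen for Lp-c6. It read 1.2 RPM in 932 heat (7 tags) and 0.69 in HY control (4 tags) and had no listed tags in the remaining libraries. Being listed at 0 in those libraries and above 0 in the others was seen in 17 of the 3214 genes, or 0.529%, and Lp-c6 and BGIBMGA004397 are 2 of those 17. In HY it was under 1 RPM in both libraries and no ratio is given.

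Models hit by 30K protein 26 were counted in 932 alone. BGIBMGA014171 read 0.33 RPM in 932 control (2 tags) and 0.86 in 932 heat (5 tags), a ratio of 2.63 (0.431 to 27.7), and was listed at 0 in both HY libraries. BGIBMGA004476 read 0.69 RPM in 932 heat (4 tags) and was listed at 0 in the other libraries. These models share the product name of their best hit, and the counting method is not given in the sources used here. Tags may therefore be divided between near-identical copies, and the split between them is uncertain.

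The 30K protein 11 gene BGIBMGA004457 read 0.34 RPM in 932 heat (2 tags) and was listed at 0 elsewhere, and the 30K protein 15 gene BGIBMGA004454 was listed at 0 throughout. Summed over these 5 30K genes, without Lp-c6, there were 2 tags in 932 control, 18 in 932 heat, 4 in HY control and 0 in HY heat. The ratio of the sums in 932, heat over control, was 9.48 (2.27 to 84.2). Between 932 and HY controls it was 0.472 (0.0427 to 3.3), which included no difference. Both intervals cover counting error only, and BGIBMGA004397 gave 7 of the 18 tags in 932 heat. The sequences of these genes and of Lp-c6 were not compared and the counting method is not given. Whether some of these tags came from Lp-c6 is therefore not known.

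The other storage protein genes were near the limit of detection. BGIBMGA009027, hit by a silkworm storage protein, read 0.34 RPM in HY control (2 tags) and was listed at 0 in the other libraries. BGIBMGA008860, hit by the alpha subunit of arylphorin (an aromatic-rich storage hexamer) of the monarch butterfly, was listed at 0 in all libraries. At these totals the floor of 3 tags corresponds to 0.489 to 0.517 RPM. Because a value listed at 0 can stand for 1 tag, this floor is not an upper limit.

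**Figure D3:**
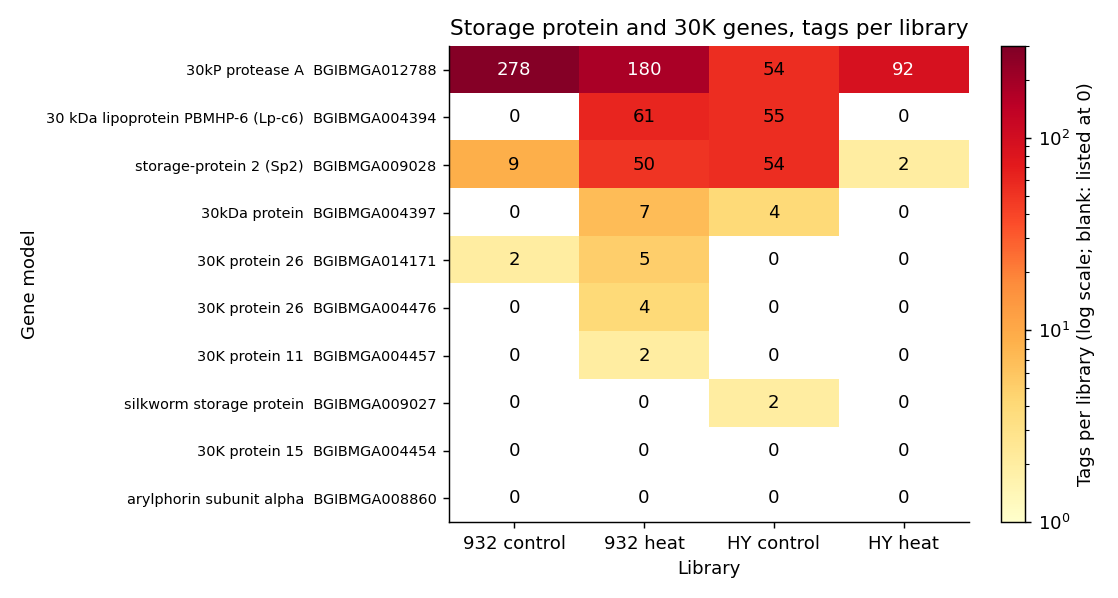
Tags per library (colour, log scale, number printed in each cell) for the 10 gene models whose best hit is named as a storage protein, an arylphorin or a 30K protein, ordered by their highest level; 0 means listed at 0, which can stand for 0 or 1 tag. Sp2 and Lp-c6 hold 50 to 61 tags in 932 heat and HY control, the smaller 30K genes hold at most 7, and the 30kP protease A gene follows another order.

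The tenth gene of the list, 30kP protease A (BGIBMGA012788), is not a storage protein but a protease named for cleaving 30K yolk proteins in the egg. It read 45.3 RPM in 932 control, 30.9 in 932 heat, 9.31 in HY control and 15.3 in HY heat. It was highest in 932 control, where Lp-c6 was listed at 0, and lowest in HY control. After heat it was 0.682-fold the control level in 932 (0.562 to 0.826) and 1.65-fold in HY (1.16 to 2.35), neither of them 2-fold after 1 RPM was added. Among controls it was 4.86-fold higher in 932 than in HY (3.62 to 6.64), and it is the 1 gene of the list counted as higher there. Without the protease the list summed to 1.8 RPM in 932 control, 22.1 in 932 heat, 19.8 in HY control and 0.33 in HY heat. Sp2 and Lp-c6 together made up 81.7%, 86.0%, 94.8% and 100% of those sums. In 932 control and HY heat this part was 9 and 2 tags of Sp2, with Lp-c6 listed at 0. The shares are of tags and are not corrected for gene length.

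Neighbouring genes were looked up by name only, since no source used here names their genome build. In the RefSeq annotation of assembly ASM3026992v2 the protein-coding genes that start just before Lp-c6 are LP4 and LP3, whose listed synonyms include Bm30K names, so Lp-c6 lies beside other 30K genes. The storage protein gene sp3 is the second protein-coding gene to start after Sp2. No best hit in the table carried a RefSeq accession of LP3, LP4 or sp3. Of the 10 list genes 2 had a RefSeq accession, so whether another list gene is one of these is not known.

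The genes whose profile over the 4 libraries was nearest to that of Sp2 were found by Euclidean distance between centred log2(RPM + 1) values, among 1352 other genes with a product name and at least 3 RPM in 1 library. The nearest was a gene hit by a putative venom acid phosphatase of the monarch butterfly (BGIBMGA006176), at a distance of 0.72. It read 2.28 RPM in 932 control, 10.1 in 932 heat, 15.5 in HY control and 2.0 in HY heat, the same pair of libraries high as for Sp2. Lp-c6 was second, at 1.19. A putative apyrase (BGIBMGA012871), an enzyme class that removes phosphates from ATP and ADP, was the third at 1.23. A carboxypeptidase (BGIBMGA004798), which trims amino acids from the ends of peptides, was the fourth at 1.24. Lactate dehydrogenase (Ldh, BGIBMGA012336), which interconverts pyruvate and lactate, was the fifth at 1.36.

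The apyrase and the carboxypeptidase shared the low HY heat value with Sp2 but not the low 932 control value. The apyrase read 9.45 RPM in 932 control, 15.1 in 932 heat, 13.6 in HY control and 2.5 in HY heat. The carboxypeptidase read 10.4, 15.6, 15.4 and 1.5 in that order. After heat in 932 their log2 ratios were 0.62 and 0.54, under 2-fold.

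For Lp-c6 the nearest gene was Sp2 at 1.19, followed by the venom acid phosphatase gene at 1.43, Ldh at 2.06, a cytochrome P450 333B11 gene (BGIBMGA005266) at 2.10 and the apyrase gene at 2.39. Ldh read 3.75 RPM in 932 control, 15.8 in 932 heat, 9.66 in HY control and 4.16 in HY heat. The P450 gene, of a family of oxidising enzymes, read 12.9, 46.0, 27.8 and 13.2 in that order. Ldh and the P450 gene were at least 2-fold higher after heat in 932 and at least 2-fold lower in HY, by smaller ratios than Lp-c6. Beside Sp2 and Lp-c6, 3 genes stood on both lists of nearest genes. Sp2 and Lp-c6 were chosen by these same values, so their closeness and the overlap of the lists follow in part from that choice. The likeness rests on 4 values per gene and says nothing of shared control.

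**Figure D4:**
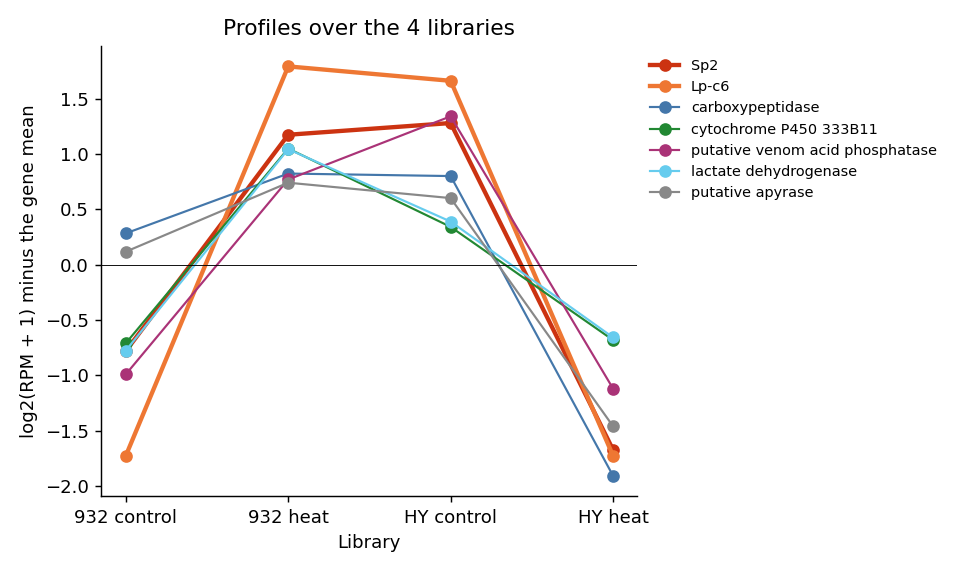
Profiles over the 4 libraries of Sp2, Lp-c6 and the 5 other genes nearest to them, as log2(RPM + 1) minus the mean of the gene; each point is 1 library. Sp2, Lp-c6 and the venom acid phosphatase gene are above their means in 932 heat and HY control and below them in 932 control and HY heat, while the carboxypeptidase and apyrase genes are above their means in 932 control as well.

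Carriers of lipid and yolk in the haemolymph, which the fat body also makes, had other profiles. Apolipophorin III (BGIBMGA013108), which binds lipoprotein particles loaded with lipid, read 23.1 RPM in 932 control, 23.2 in 932 heat, 13.5 in HY control and 25.1 in HY heat. The apolipophorin precursor gene (BGIBMGA013342), the core of those particles, read 3.42, 2.75, 4.14 and 9.99 in that order. In neither gene did both 932 heat and HY control stand above the remaining libraries. A vitellogenin-like gene (BGIBMGA005179) read 0.65 and 0.86 RPM in the 932 control and heat libraries and was listed at 0 in HY, and the remaining vitellogenin and apolipophorin models (BGIBMGA010401 and BGIBMGA013375) were listed at 0 throughout. Of 5 carriers, 2 reached 1 RPM in each variety. In 932 after heat none was 2-fold higher or lower, beside 11.1% and 9.86% of all genes. In HY 1, the apolipophorin precursor gene, was higher and none lower, beside 14.1% and 4.59% of all genes. With so few genes these counts say little about carriers as a group.

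Genes named for juvenile hormone, ecdysone or a hormone receptor, taken by product name, gave 17 genes above 1 RPM in 932, with 2 at least 2-fold higher after heat and 2 lower, beside 11.1% and 9.86% of all genes. The higher genes were an ecdysteroid-regulated protein gene (BGIBMGA013039), from 1.14 to 4.29 RPM, and BGIBMGA008813, described below. The lower genes were a putative juvenile hormone-inducible protein gene (BGIBMGA013971), from 1.47 RPM, and a nuclear hormone receptor gene (BGIBMGA000716), from 1.14 RPM, which were both listed at 0 after heat. In HY 14 were above 1 RPM, with none higher and 2 lower, beside 14.1% and 4.59% of all genes. The lower genes were BGIBMGA008813 and an ecdysteroid 22-kinase gene (BGIBMGA011954) that read 3.1 RPM in control and was listed at 0 after heat. The median log2 ratio was -0.22 in 932 and 0.22 in HY, beside 0.02 and 0.34 over all genes. Those of the highest level stayed within 2-fold after heat in both varieties. Juvenile hormone diol kinase (Jhdk, BGIBMGA008814), which adds phosphate to the hormone diol, read 819 RPM in 932 control, 833 in 932 heat, 550 in HY control and 395 in HY heat. Juvenile hormone epoxide hydrolase-like protein 4 (BGIBMGA013793) read 141, 113, 44.5 and 73.8 in that order. The cytosolic juvenile hormone binding protein gene (BGIBMGA006583) read 41.7, 30.7, 33.1 and 50.5. A 3-dehydroecdysone 3alpha-reductase (BGIBMGA013220), an enzyme of ecdysone turnover, read 35.2, 36.2, 20.7 and 17.8.

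A second model hit by juvenile hormone diol kinase (BGIBMGA008813), singled out after its values were seen, followed Lp-c6. It read 2.92 RPM in 932 heat and 2.07 in HY control, with no listed tags in the other libraries. It shares the product name and gene symbol of its best hit with BGIBMGA008814, so tags may be divided between these models and its values are uncertain.

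Other proteins of the haemolymph and its defence, taken by product name, reached 1 RPM in 5 of 6 genes in 932, with 1 higher and 1 lower after heat, beside 11.1% and 9.86% of all genes. In HY 4 reached it and none was at 2-fold, beside 14.1% higher and 4.59% lower of all genes. A serpin-2 gene (BGIBMGA007720), of a family of protease inhibitors, read 9.94 RPM in 932 control, 6.86 in 932 heat, 29.3 in HY control and 36.6 in HY heat. Transferrin (BGIBMGA012221), an iron carrier, read 19.4, 1.72, 2.24 and 3.0 in that order and was the lower gene in 932. The higher gene, chymotrypsin inhibitor CI-8A (BGIBMGA001983), was listed at 0 except in 932 heat, at 1.72 RPM. A lactotransferrin gene (BGIBMGA000826) read 3.75, 2.92, 3.45 and 5.83. The prophenoloxidase activating enzyme gene (BGIBMGA013746), a protease of the melanin cascade, read 2.77, 2.23, 0.52 and 1.67. None of these genes had both 932 heat and HY control above the remaining libraries.

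The tissue label was checked against marker lists taken by product name, since a dissected midgut can carry other cells. The midgut list of 105 genes, of lipases, trypsins, V-ATPase subunits and the like, summed to 59319 RPM in 932 control, 31741 in 932 heat, 10650 in HY control and 16596 in HY heat. Most of the 932 control sum came from the lipase genes BGIBMGA010400, at 22885 RPM, and BGIBMGA002670, at 17097 RPM. In HY control these genes read 470 and 1635 RPM. The list also took in vacuolar protein sorting genes by name. The 17 fat body markers, which include Sp2 and Lp-c6, summed to 97.4, 84.4, 52.4 and 59.6 RPM in that order, and 8, 12, 9 and 6 of them were above 0. Without Sp2 and Lp-c6 the sums were 95.9, 65.4, 33.6 and 59.3 RPM, highest in 932 control and lowest in HY control. That list took in the 30kP protease by name, and without it the sums were 50.7, 34.5, 24.3 and 44.0 RPM. Transferrin (BGIBMGA012221) gave 19.4 RPM of the 50.7 in 932 control and 1.72, 2.24 and 3.0 RPM in the other libraries. The smaller 30K genes on that list held 2, 18, 4 and 0 tags in the same order. The order of the fat body sums thus depends on single genes. Of the 15 markers other than Sp2 and Lp-c6, 7, 10, 7 and 5 were above 0 in the same order. A vitellogenin and an apolipophorin model of that list were at 0 in all libraries, as described above. The part of fat body RNA in the levels of Sp2 and Lp-c6 was not tested.

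Among other cell types, muscle markers (16 genes) summed to 826 to 1174 RPM with the highest value in HY heat. Haemocyte markers (10 genes, among them integrins and disintegrin proteins taken in by name) summed to 1.89 to 7.0 RPM, and cuticle proteins (19 genes) to 1489 to 3811 RPM. The cuticle sums were highest in 932 heat and HY control, at 3811 and 3494 RPM, against 2713 in 932 control and 1489 in HY heat. Most of each sum came from CPH45 (BGIBMGA004124) and the models BGIBMGA013778 and BGIBMGA005302 hit by CPH43, whose orders differed. CPH45 was highest in HY control, at 1902 RPM, and the others in 932 heat, at 1679 and 1227 RPM. Silk gland markers by name (5 genes) were 24.3 to 55.8 RPM, most of it the fibroinase gene BGIBMGA011342, and the 1 Malpighian tubule marker, xanthine dehydrogenase, was 20.4 to 41.5 RPM. The part of these cell types in the levels of Sp2 and Lp-c6 was not tested.

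**Figure D5:**
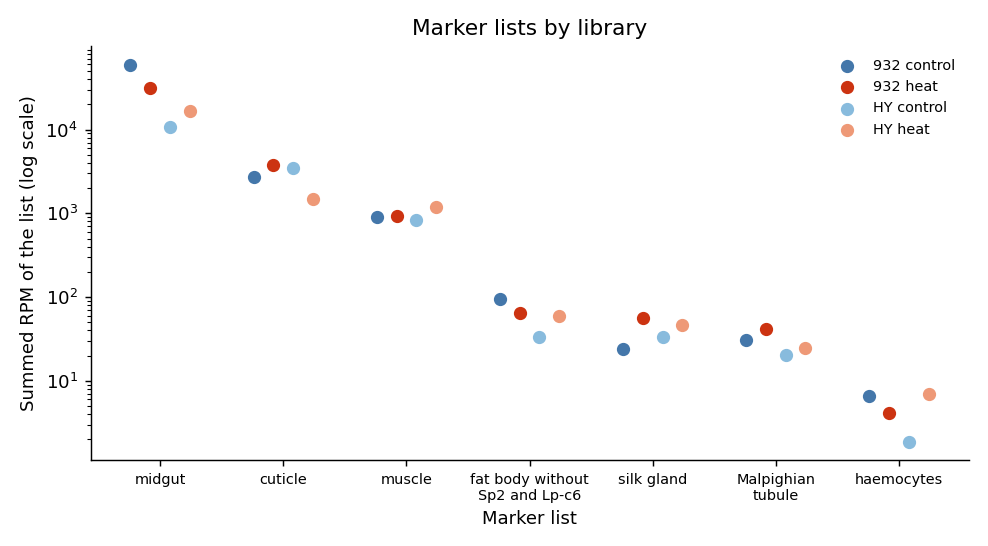
Summed RPM (log scale) of marker lists for the midgut and for other tissues a midgut dissection could carry; each point is 1 library, and the fat body list is shown without Sp2 and Lp-c6. The midgut sums of 10650 to 59319 RPM are the highest in every library. The fat body sums of 33.6 to 95.9 RPM are highest in 932 control and lowest in HY control. In 932 control they include 30kP protease A at 45.3 RPM and transferrin at 19.4 RPM.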

How the data were processed

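Midgut RNA was extracted with Trizol and made into standard Illumina libraries, per the labels' protocols. Aligner, counting tool and gene model build are not given in the sources used here. The deposited table holds RPM values, which the file header calls TPM: at the totals found, 100% of the values above 0 were whole tags within 0.0051 RPM, with no correction for length. For HY control and HY heat, 4 and 5 adjacent totals fitted equally well.

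Ratios are log2 of RPM plus 1, called from 2-fold on where a compared library reached 1 RPM. With 1 library per group no test or p-value was possible. Intervals are exact at 95% (Poisson for levels, Clopper-Pearson for ratios of tags), cover counting error only, and folds against 0 use a floor of 3 tags per library. Symbols came from RefSeq protein accessions, which 2 of the 10 list genes had. Lists were taken by product name. Named genes were the list, the 5 nearest profiles to Sp2 and to Lp-c6, and up to 4 genes of the highest level from each haemolymph and hormone list. The members and lists were chosen with earlier results of these data known. A planned comparison of protein sequences was not made. Scaling, floor, added value, fold rule and tag ratios were varied. The steps were tested on simulated data. Calculations ran in Python 3.11.15 with scipy 1.17.1, pandas 2.3.3 and numpy 2.4.6, and plots in matplotlib 3.10.9.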

Additional observations from a re-analysis of the deposited data

Results flagged for a closer look

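In all, 6 genes named above moved at least 2-fold in opposite directions after heat, higher in 932 and lower in HY. The difference of the log2 heat responses, 932 minus HY, was 4.91 for Sp2 (BGIBMGA009028) and 6.91 for Lp-c6 (BGIBMGA004394). It was 4.22 for the venom acid phosphatase gene BGIBMGA006176, 2.87 for lactate dehydrogenase (BGIBMGA012336), 2.78 for the cytochrome P450 333B11 gene BGIBMGA005266 and 3.59 for the second juvenile hormone diol kinase model BGIBMGA008813. These differences were not tested, because each variety has 1 control and 1 heat library, and all 6 genes were picked on these values: Sp2 and Lp-c6 by their own levels, and the others for a like profile or after their values were seen.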

How the results depend on the processing

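No paired analysis was possible because each group has 1 library, and no library could be left out for the same reason. With 10 RPM added in place of 1, the Sp2 ratios were 0.70 for heat in 932, -0.90 for heat in HY, -0.75 for 932 over HY in controls, 0.85 after heat and 1.60 for the difference of responses, and those of Lp-c6 were 1.03, -0.96, -0.96, 1.03 and 2.00. When the 20 most abundant genes were left out of the totals, Lp-c6 stood at 3.50 for heat in 932 and for 932 over HY after heat, and centring on the median gene also gave 3.50 for heat in 932. With 10 added the list counts were 1 higher for heat in 932, 0 lower for heat in HY, 0 lower in 932 among controls, 1 higher after heat and 0 lower for the difference. With a floor of 10 RPM they were 1, 0 and 0 in the first 3 of these comparisons, 1 higher after heat and 1 higher for the difference. The 4-fold rule left 1 higher for heat in 932. The 1 gene lower in the difference, 30kP protease A, was 0 under the 4-fold rule, centring, median-of-ratios factors and totals taken without those 20 genes. Without that protease, an alternative chosen after seeing the data, the count was 0 there and 0 higher among controls. A floor of 10 RPM leaves out Sp2, whose highest level was 9.31 RPM, and Lp-c6 where 932 heat is not compared. With 0.1 added, 3 of the 5 nearest genes of Sp2 and 2 of the 5 of Lp-c6 were the same. Levels of a few tags limit the smaller 30K genes.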

Other observations

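Further genes were at least 2-fold higher after heat in 932 and at least 2-fold lower in HY. The peptidoglycan recognition protein gene PGRP-S1 (BGIBMGA008038), which binds bacterial cell walls, read 15.2 RPM in 932 control, 33.8 in 932 heat, 70.5 in HY control and 32.1 in HY heat, so 932 heat and HY heat stood close together. A chitin binding domain 3 gene (BGIBMGA009067) read 0.65, 4.46, 395 and 17.0 in that order, with HY control far above the rest. An antennal esterase gene (CXE14, BGIBMGA007546) read 4.56, 17.3, 1.72 and 0.33. Unlike Sp2 and Lp-c6, the last 2 of these did not have both 932 heat and HY control above the remaining libraries. Genes hit by hypothetical proteins were also among them. BGIBMGA006239 read 0.33, 4.12, 4.14 and 0.83 RPM in the same order. BGIBMGA011616 read 1.03 RPM in 932 heat and 2.41 in HY control and was listed at 0 elsewhere. Both had the order of high and low libraries seen for Sp2 and Lp-c6. BGIBMGA004115, at 5.7, 89.7, 3.1 and 0.5 RPM, did not. The phosphate transporter gene Pi-t1 (BGIBMGA014259) is not among the genes passing 2-fold in both varieties, as it was under 1 RPM in both HY libraries. It read 1.2 RPM in 932 heat and 0.69 in HY control and was listed at 0 elsewhere.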
